A study of Mus musculus with 6 samples.

Results

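The G1 cyclins, cyclin-dependent kinases (CDKs) and CDK inhibitors were followed in mouse splenic B cells that carried the NF-κB2 mutant p80HT and in B cells of wild-type (WT) mice. The set holds 10 genes, taken by their gene symbols on the array platform: Ccnd1, Ccnd2, Ccnd3, Ccne1, Ccne2, Cdk4, Cdk6, Cdkn1a, Cdkn1b and Cdkn2c. Each gene was read at the probeset that is annotated to that symbol alone and has the highest mean over all 6 arrays. This gave values for 9 of the 10 genes, out of 19938 genes measured in the same way. Cdkn1a (p21), an inhibitor of CDK2 complexes, was left without a value because its probeset is shared with another symbol, 4930567H12Rik.

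Both groups were C57BL/6J x SJL/J mice, 1 year old, with 3 mice per genotype and 1 Affymetrix Mouse Gene 1.0 ST array per mouse. The p80HT mice carried the human coding sequence of a lymphoma-derived, truncated NF-κB2, driven in B and T lymphocytes by the H-2Kb promoter with the immunoglobulin μ enhancer, and had a monoclonal immunoglobulin (M-protein) in their serum. The WT mice were littermates without the transgene. B cells were taken from spleen on magnetic beads with an antibody to B220, a form of CD45 found on most mouse B cells, and the mice were taken before it was known whether each would go on to a plasma cell tumor. Because the transgene is human, the mouse Nfkb2 probeset does not check the labels: it read 10.87, 10.63 and 10.57 on p80HT replicates 1 to 3 and 10.79, 10.92 and 10.87 on WT replicates 1 to 3 (log2 signal, as are all levels below).

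In G1, D-type cyclins bind CDK4 or CDK6 and phosphorylate the retinoblastoma protein, which frees E2F factors, and E2F in turn raises cyclin E, the partner of CDK2 at the entry into S phase. The Cip/Kip inhibitors p21 and p27 act mainly on CDK2 complexes, while the INK4 inhibitors, p18INK4c among them, bind CDK4 and CDK6. Normal lymphocytes rely largely on cyclins D2 and D3, and cyclin D1 is best known in the B lineage from mantle cell lymphoma and multiple myeloma.

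Changes were tested with limma across all 19938 genes as p80HT minus WT on the log2 scale. The words rose and fell are kept for genes that passed the threshold in the study's methods, a change of 1.5-fold or more at an unadjusted p below 0.01. Benjamini-Hochberg adjusted p-values were taken over all genes. With all 6 arrays, 3 of the 9 members rose (Ccnd1, Ccnd2 and Ccne1), 0 fell and 6 did not pass, where 1.22% of all genes rose and 0.968% fell. In limma 0 of the 9 had an adjusted p under 0.05 upward and 0 downward, where 0.0502% and 0.00502% of all genes did. Of the members, Ccnd1, Ccnd2 and Ccne1 had an unadjusted p under 0.05, as did 2042 of all genes. When p80HT replicate 3 was left out, 2 of the 9 rose (Ccnd1 and Ccnd2) and 0 fell, against 2.01% and 1.45% of all genes. In that comparison 3 members (Ccnd1, Ccnd2 and Ccne1) had an adjusted p under 0.05 upward in limma and 0 had one downward, against 2.56% and 2.11% of all genes. By ordinary analysis of variance, which uses each gene's own spread, 0 of all genes had an adjusted p under 0.05 there. The median log2 fold change of the 9 members was 0.24 with 6 arrays and 0.05 without p80HT replicate 3, and that of all genes was -0.02 and 0.04. In bulk RNA such as this, fewer cells of a type and less RNA per cell cannot be told apart. The study itself singled out Ccnd1 and Ccnd2 on these same mice, so their rise here is not independent evidence. The study also reported both as higher in p80HT B cells by qRT-PCR, which was not examined here.

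The array of p80HT replicate 3 stands apart from the other 5. Across genes, which are not independent replicates, it correlated at 0.914 to 0.925 with the other arrays, while these correlated at 0.981 or above with each other, and array medians ran only between 7.68 and 7.81. It is the highest of the 6 arrays for 7 of the 9 members and for 27.8% of all genes, and the lowest for 1 member (the inhibitor gene Cdkn1b) and for 48.1% of all genes. It also carries gland transcripts, with Pip at 13.70 and Amy1 at 13.50, where the other 5 arrays read at most 5.51 and 5.95. Each result is therefore given with and without it.

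**Figure D1:**
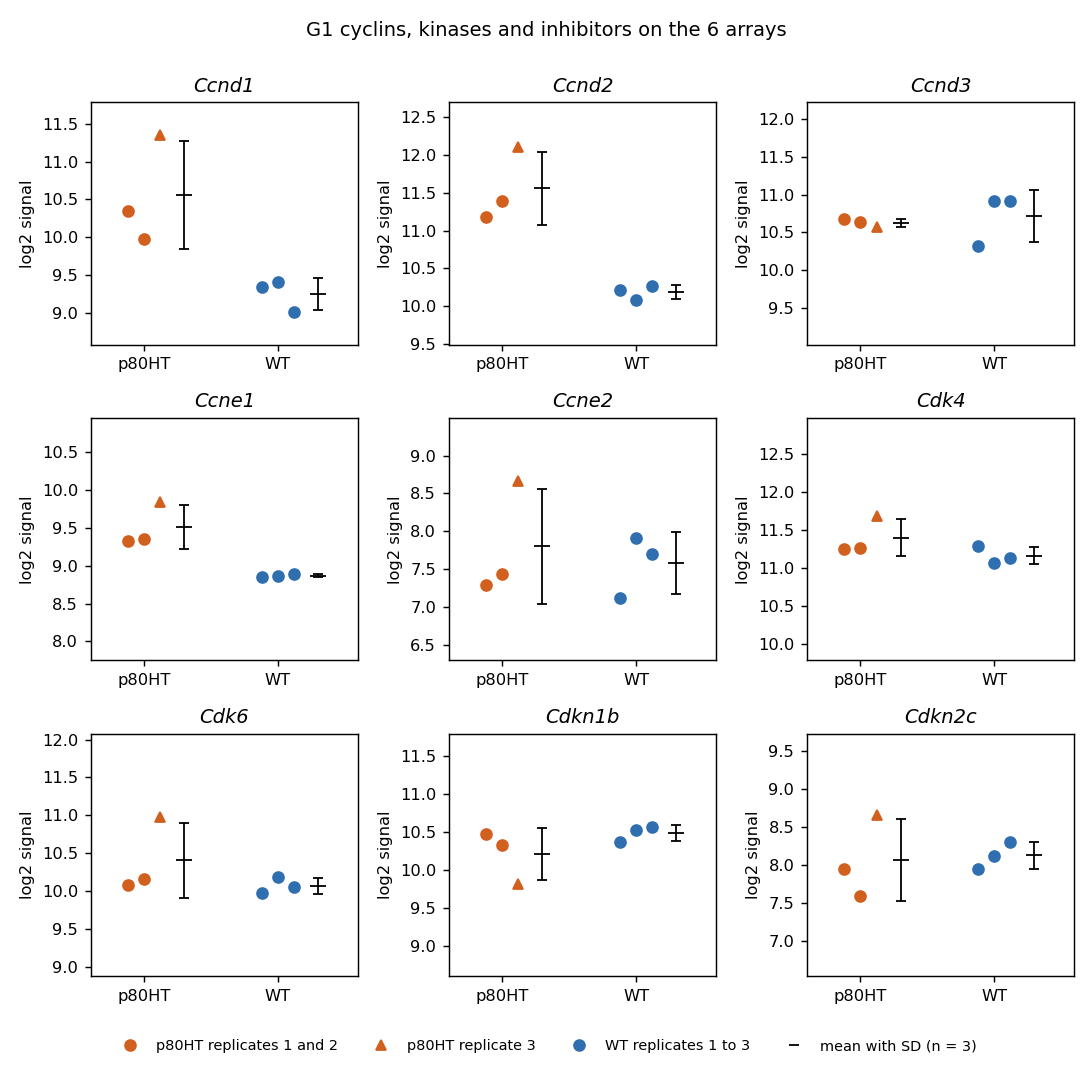
Log2 signal (vertical axis, a span of equal height in every panel) of the 9 measured members, 1 point per mouse, p80HT left and WT right, with group mean and SD (n = 3). For Ccnd1, Ccnd2 and Ccne1 every p80HT point is above every WT point, and p80HT replicate 3 (triangle) is the highest array for 7 of the 9 genes.

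Among the D-type cyclins, Ccnd2 and Ccnd1 rose and Ccnd3 did not pass the test. Ccnd2 (cyclin D2) read 11.17, 11.40 and 12.10 on p80HT replicates 1 to 3, against 10.22, 10.08 and 10.26 on WT replicates 1 to 3. All p80HT arrays lay above all WT arrays, a separation upward that 8.86% of all genes showed, Ccnd1 and Ccne1 among them. The means were 11.56 ± 0.49 in p80HT and 10.19 ± 0.09 in WT (SD, n = 3 each). The log2 fold change was 1.37 (SE 0.24, 95% interval 0.80 to 1.93), or 2.58-fold, with an unadjusted p of 0.000674 and an adjusted p of 0.154 in limma. The change was more positive than that of 99.4% of all genes. On p80HT replicates 1 and 2 alone the rise was 1.10 (SE 0.12, 95% interval 0.84 to 1.36), or 2.14-fold, with an adjusted p of 0.00105 in limma. The rise of Ccnd2 passed the threshold in all 15 alternative fits of the 6-array comparison.

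Ccnd1 (cyclin D1) read 10.35, 9.97 and 11.35 on p80HT replicates 1 to 3, against 9.34, 9.40 and 9.02 on WT replicates 1 to 3. All 3 p80HT arrays were above all 3 WT arrays, and p80HT replicate 3 was 1.00 above the next array. The means were 10.56 ± 0.71 in p80HT and 9.25 ± 0.21 in WT (SD, n = 3 each), a log2 fold change of 1.30 (SE 0.34, 95% interval 0.51 to 2.10), or 2.47-fold. The unadjusted p was 0.00597 and the adjusted p was 0.287 in limma. With p80HT replicates 1 and 2 alone the gene still rose, by 0.91 (SE 0.15, 95% interval 0.56 to 1.25), or 1.88-fold, with an adjusted p of 0.00991 in limma, and the groups still did not overlap. With 5 arrays, 19.7% of all genes had every p80HT array above every WT array. The 6-array call on Ccnd1 was lost without WT replicate 1 (log2 fold change 1.35), WT replicate 2 (1.38) or WT replicate 3 (1.18), each of which leaves 2 WT arrays. The call was also lost in both comparisons by ordinary analysis of variance, the test of the study's methods, which uses each gene's own spread (unadjusted p of 0.0381 with 6 arrays and 0.0226 without p80HT replicate 3).

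Ccnd3 (cyclin D3) read 10.68, 10.64 and 10.57 on p80HT replicates 1 to 3, against 10.32, 10.91 and 10.91 on WT replicates 1 to 3. The WT arrays spread on both sides of the p80HT arrays, which lay close together. Its log2 fold change was -0.08 (95% interval -0.52 to 0.35, adjusted p = 0.964 in limma), and -0.06 (95% interval -0.44 to 0.33) without p80HT replicate 3.

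The unequal change of the D-type cyclins was tested as the within-array difference of 2 genes, by an exact 2-sided permutation test over arrays that cannot give a p below 0.10 at this number of mice. Of 5 pairs compared, the log2 fold change of Ccnd2 was 1.45 above that of Ccnd3 (exact permutation p = 0.10, adjusted over the 5 pairs 0.25) and that of Ccnd1 was 1.39 above that of Ccnd3 (exact permutation p = 0.10, adjusted 0.25). In both pairs every p80HT array was on one side of every WT array. On p80HT replicates 1 and 2 alone these differences were 1.15 (exact permutation p = 0.10, adjusted 0.333) and 0.96 (exact permutation p = 0.20, adjusted 0.333). The log2 fold changes of Ccnd1 and Ccnd2 differed by -0.07 (exact permutation p = 0.70), less than the spread between arrays.

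Of the cyclin E genes, Ccne1 rose at the threshold and Ccne2 did not pass. Ccne1 (cyclin E1) read 9.33, 9.36 and 9.84 on p80HT replicates 1 to 3, against 8.85, 8.86 and 8.89 on WT replicates 1 to 3. The WT arrays were nearly identical and every p80HT array was above them. Ccne1 rose by 0.64 on the log2 scale (SE 0.17, 95% interval 0.25 to 1.03), or 1.56-fold, with an unadjusted p of 0.00616 and an adjusted p of 0.289 in limma. It was at 0.47 without p80HT replicate 3 (SE 0.10, 95% interval 0.25 to 0.70), or 1.39-fold, which is under the 1.5-fold threshold although its adjusted p was 0.0287 in limma. When WT replicate 1, 2 or 3 was left out as well, that adjusted p was 0.0162, 0.0751 or 0.0991 in limma. The 6-array call was also lost without WT replicate 1 (0.63), WT replicate 2 (0.64) or WT replicate 3 (0.65), with array weights (0.45), with each array centred on its median (0.55) and by ordinary analysis of variance (unadjusted p of 0.0192).

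Ccne2 (cyclin E2), the second cyclin E, read 7.29, 7.44 and 8.67 on p80HT replicates 1 to 3, against 7.12, 7.91 and 7.70 on WT replicates 1 to 3. Only p80HT replicate 3 lay outside the range of the WT arrays. Its log2 fold change was 0.22 (95% interval -0.69 to 1.14, adjusted p = 0.945 in limma) with that array and -0.21 (95% interval -0.66 to 0.24) without it. The log2 fold change of Ccne1 was 0.42 above that of Ccne2 (exact permutation p = 0.30), and 0.68 above it without p80HT replicate 3 (exact permutation p = 0.20).

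Sequence upstream of the start was at hand for 7 of the 10 genes, as windows of 250 bases from RefSeq on GRCm38.p6. Ccne1 is shown as the gene past the threshold that has such a window, and Cdk4 as a kinase gene that did not pass. In the Ccne1 window (chr7:38107491-38107740, minus strand) capitals mark the Sp1 box GGGCGG on either strand, and in the Cdk4 window (chr10:127063285-127063534, plus strand) they mark the E-box CACGTG, which Myc binds together with Max.
Ccne1: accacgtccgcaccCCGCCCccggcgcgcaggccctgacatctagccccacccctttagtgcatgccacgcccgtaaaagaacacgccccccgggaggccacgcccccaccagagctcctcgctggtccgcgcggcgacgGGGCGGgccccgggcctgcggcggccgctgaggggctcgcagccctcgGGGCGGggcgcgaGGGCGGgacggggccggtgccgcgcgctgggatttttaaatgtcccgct
Cdk4: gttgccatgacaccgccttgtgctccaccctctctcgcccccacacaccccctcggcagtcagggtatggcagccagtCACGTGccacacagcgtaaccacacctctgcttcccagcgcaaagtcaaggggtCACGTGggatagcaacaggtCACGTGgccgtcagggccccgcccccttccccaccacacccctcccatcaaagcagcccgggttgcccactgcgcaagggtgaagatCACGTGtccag
The Ccne1 window holds 4 Sp1 boxes, which begin 236, 110, 62 and 49 bases before the start, and 32.7% of 32851 windows of this length hold at least 1. The Cdk4 window holds 4 E-boxes, at 172, 118, 98 and 11 bases before the start, and 6.02% of all windows hold at least 1. The NF-κB-like pattern GGGNNNNNCC, searched on both strands, occurs in 45.8% of all windows. Each of the 7 genes has a window with it, but Cdkn2c and Cdkn1a also have a window without it. The count by gene is therefore not comparable with the share by window. In Ccne1 4 of the 5 matches overlap an Sp1 box. The E2F patterns TTTCCCGC, TTTCGCGC, TTTGCCGC and TTTGGCGC, held by 1.86% of all windows on either strand, are not among the letters of these windows. A match is a description of the letters and not of a bound site.

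The kinase genes did not pass the test in either comparison. Cdk4, a catalytic partner of the D-type cyclins, read 11.26, 11.27 and 11.69 on p80HT replicates 1 to 3, against 11.30, 11.07 and 11.13 on WT replicates 1 to 3. Its groups overlapped, and only p80HT replicate 3 was above the WT range. Cdk4 had a log2 fold change of 0.24 (95% interval -0.14 to 0.62, adjusted p = 0.661 in limma) and of 0.10 (95% interval -0.15 to 0.34) without that array. Cdk6, the other catalytic partner, read 10.08, 10.16 and 10.98 on p80HT replicates 1 to 3, against 9.97, 10.18 and 10.05 on WT replicates 1 to 3. Here too p80HT replicate 3 alone was above the WT range. Cdk6 had a log2 fold change of 0.34 (95% interval -0.24 to 0.92, adjusted p = 0.684 in limma) and of 0.05 (95% interval -0.19 to 0.30) without it. The log2 fold changes of Cdk6 and Cdk4 differed by 0.10 (exact permutation p = 0.70).

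The measured inhibitors did not pass either. Cdkn1b (p27), which holds resting lymphocytes out of the cycle, read 10.47, 10.32 and 9.82 on p80HT replicates 1 to 3, against 10.37, 10.53 and 10.57 on WT replicates 1 to 3. p80HT replicate 3 was the lowest array and the other p80HT arrays lay at or near the WT range. For Cdkn1b the log2 fold change was -0.29 (95% interval -0.73 to 0.16, adjusted p = 0.654 in limma) and -0.09 (95% interval -0.35 to 0.16) without p80HT replicate 3. Cdkn2c (p18INK4c), an INK4 inhibitor that limits plasma cell numbers in mice, read 7.95, 7.60 and 8.66 on p80HT replicates 1 to 3, against 7.95, 8.12 and 8.31 on WT replicates 1 to 3. The p80HT arrays spanned the whole WT range. For Cdkn2c the log2 fold change was -0.06 (95% interval -0.69 to 0.58, adjusted p = 0.990 in limma). On p80HT replicates 1 and 2 alone it was -0.35 (95% interval -0.68 to -0.03), with an unadjusted p of 0.0344 and an adjusted p of 0.194 in limma. There the higher p80HT array and the lowest WT array were equal to 2 decimals. By the unrounded values this was 1 member below WT without overlap, where 20.5% of all genes were with 5 arrays and 11.9% with 6, and with 6 arrays 0 members were.

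**Figure D2:**
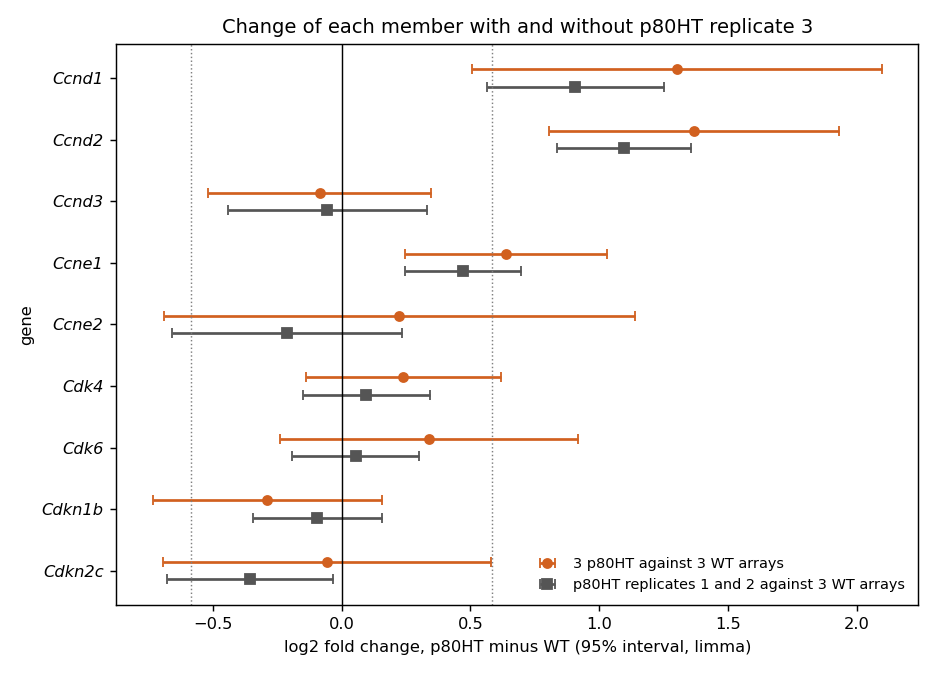
Log2 fold change (horizontal axis, p80HT minus WT) of each measured member with its 95% interval from limma, circles for 3 p80HT against 3 WT arrays and squares for p80HT replicates 1 and 2 against 3 WT arrays. Dotted lines mark 1.5-fold, and the intervals of Ccnd1, Ccnd2 and Ccne1 exclude 0 in both comparisons.

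The other genes of the G1 machinery were followed in lists of the pathway. Of 16 other G1 kinases, cyclins and inhibitors (among them Cdk2, Cdkn2a and Cdc25a), 0 rose and 0 fell with 6 arrays or without p80HT replicate 3, and the median log2 fold change was -0.03 and -0.09. Of 14 genes for the turnover of G1 regulators, such as the ubiquitin ligase subunit Skp2, 0 rose and 0 fell in either comparison (median 0.01 and -0.13).

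Of 13 genes of the retinoblastoma and E2F families, 0 passed with 6 arrays and 1, E2f5, fell without p80HT replicate 3, as did 1.45% of all genes. E2f5, an E2F member that acts with the retinoblastoma relatives p107 and p130, read 8.32, 8.55 and 9.22 on p80HT replicates 1 to 3, against 8.92, 9.37 and 9.50 on WT replicates 1 to 3. p80HT replicates 1 and 2 were below the WT arrays and p80HT replicate 3 lay among them. E2f5 had a log2 fold change of -0.57 (adjusted p = 0.521 in limma) with 6 arrays and of -0.83 (adjusted p = 0.0235 in limma) without p80HT replicate 3, a call that ordinary analysis of variance did not make.

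Of 21 measured genes upstream of the D-type cyclins (NF-κB, STAT, Myc, Fos and Jun, PI3 kinase and Foxo genes), 0 rose and 1, Bcl6, fell in each comparison. Of all genes 0.968% fell with 6 arrays and 1.45% without p80HT replicate 3. Bcl6, a transcriptional repressor that defines germinal centre B cells and represses Ccnd2 in B cell lines, read 10.30, 9.90 and 10.03 on p80HT replicates 1 to 3, against 10.64, 10.75 and 10.80 on WT replicates 1 to 3. Every p80HT array was below every WT array. For Bcl6 the change was -0.65 on the log2 scale (adjusted p = 0.221 in limma) with 6 arrays and -0.63 (adjusted p = 0.0295 in limma) without p80HT replicate 3. The call was lost without p80HT replicate 2 (-0.56 of the 6 arrays, -0.43 of the 5), and of the 6 arrays also without WT replicate 2 (-0.64) or WT replicate 3 (-0.62) and with array weights (-0.57). Quantile normalization lost it in both comparisons (-0.58 and -0.52), and ordinary analysis of variance lost it without p80HT replicate 3.

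Of 13 measured p53 pathway targets, 0 rose and 1, Plk2, fell in each comparison, as did 0.968% and 1.45% of all genes. Plk2, a polo-like kinase gene that p53 induces, read 9.55, 9.52 and 7.05 on p80HT replicates 1 to 3, against 11.46, 11.40 and 11.44 on WT replicates 1 to 3. The WT arrays were nearly identical, p80HT replicates 1 and 2 lay well below them, and p80HT replicate 3 lay near the background level of 6.81, the 25th percentile of gene means. For Plk2 the change was -2.72 on the log2 scale (adjusted p = 0.248 in limma) with 6 arrays and -1.89 (adjusted p = 2.86e-05 in limma) without p80HT replicate 3. The 6-array call was lost without WT replicate 1 (-2.71), WT replicate 2 (-2.74) or WT replicate 3 (-2.72) and by ordinary analysis of variance.

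Of 13 genes of lymphocyte quiescence, which include Cdkn1b and share 4 further genes with the lists above, 0 passed in either comparison (median -0.38 with 6 arrays and -0.13 without p80HT replicate 3). With 6 arrays 11 changes were negative and 2 positive. There 6 genes were below all WT arrays on every p80HT array and 0 above, against 11.9% and 8.86% of all genes. Without p80HT replicate 3, 6 were below and 1 above, against 20.5% and 19.7%. In that comparison 1 had an adjusted p under 0.05 downward in limma, against 2.11% of all genes.

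The readout of S, G2 and M phase, 23 measured genes that act after the G1 cyclins, had 0 genes that rose and 0 that fell with 6 arrays (median 0.36). Its mean level was 9.16, 9.26 and 10.32 on p80HT replicates 1 to 3, against 9.32, 9.33 and 9.23 on WT replicates 1 to 3. p80HT replicate 3 alone was above the WT range, and it was the highest array for 21 of the 23 genes. Without that array the median was -0.08, 0 genes rose and 1, Pcna, fell, where 2.01% and 1.45% of all genes did. There 9 of the 23 were below all WT arrays and 2 above, against 20.5% and 19.7% of all genes. In limma 1 had an adjusted p under 0.05 upward and 1 downward, against 2.56% and 2.11% of all genes. Pcna, the sliding clamp of DNA replication, read 11.41, 11.34 and 12.02 on p80HT replicates 1 to 3, against 11.97, 12.19 and 12.03 on WT replicates 1 to 3. p80HT replicates 1 and 2 lay below every WT array. Its log2 fold change was -0.69 (adjusted p = 0.00818 in limma) without p80HT replicate 3 and -0.47 (adjusted p = 0.489 in limma) with 6 arrays.

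**Figure D3:**
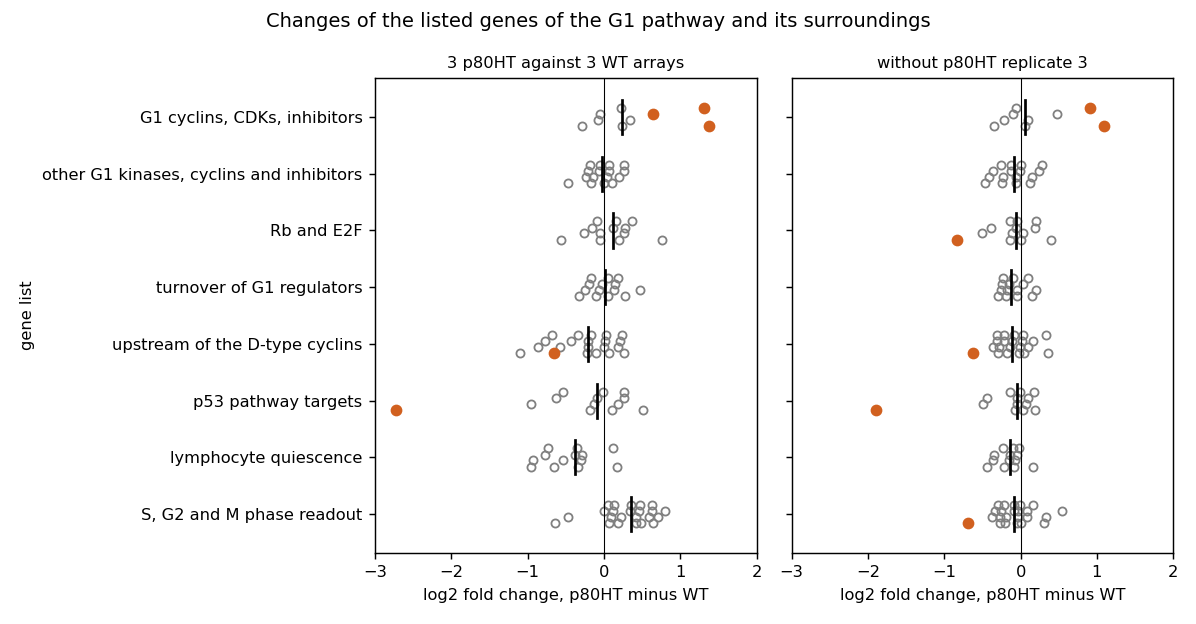
Log2 fold change (horizontal axis, p80HT minus WT) of every measured gene in the G1 lists, left with 6 arrays and right without p80HT replicate 3. Filled points passed 1.5-fold with an unadjusted p under 0.01, open points did not, and black bars are list medians. With 6 arrays 3 of the 9 members are filled upward, and in the other 7 lists no gene is.

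Lists of markers for other cell types were read on the same arrays. All 12 of the T cell markers with a value were higher on every p80HT array than on any WT array, as were 8.86% of all genes. Their mean level was 9.36, 9.17 and 10.83 on p80HT replicates 1 to 3, against 8.29, 8.62 and 8.46 on WT replicates 1 to 3. None of them lay below the background level on all arrays. 4 of them rose with 6 arrays and 11 without p80HT replicate 3, against 1.22% and 2.01% of all genes. The log2 fold changes were 1.74 and 1.28 for Cd3e and 1.29 and 0.62 for Cd3d. Among 9 erythroid markers, 3 rose with 6 arrays and 8 without p80HT replicate 3, with mean levels of 7.68 to 8.56 in p80HT and 7.39 to 7.56 in WT. Their first genes, Alas2 (1.30 and 1.06) and Slc4a1 (1.65 and 2.15), rose in both comparisons. Of 9 B cell markers, 0 rose and 0 fell with 6 arrays, and 2, Cr2 (-1.99 and -1.13) and Fcer2a (-1.80 and -0.996), fell without p80HT replicate 3. On every p80HT array 6 of the 9 B cell markers were below all WT arrays, as were 11.9% of all genes. The mean level of the B cell markers was 12.16, 12.03 and 10.51 on p80HT replicates 1 to 3, against 12.37, 12.57 and 12.49 on WT replicates 1 to 3. Ms4a1 read 13.03, 12.88 and 11.77 on p80HT replicates 1 to 3 and 12.99 to 13.12 in WT, and Cd79a read 12.15, 12.06 and 10.81 on p80HT replicates 1 to 3 and 12.10 to 12.47 in WT. All 9 markers were lowest on p80HT replicate 3, and none was below the background level on all arrays.

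Gland and stroma markers set p80HT replicate 3 apart. The mean of 11 gland markers was 7.04, 7.19 and 9.98 on p80HT replicates 1 to 3, against 7.07, 6.85 and 7.08 on WT replicates 1 to 3, and that of 10 fibroblast and stroma markers was 7.59, 7.59 and 10.23 on p80HT replicates 1 to 3, against 7.57, 7.24 and 7.44 on WT replicates 1 to 3. Of these, 5 gland and 2 stroma markers were below the background level on all WT arrays. Dcn read 13.09 and Col1a1 9.59 on p80HT replicate 3, where the other 5 arrays read at most 6.15 and 8.74. Of 11 macrophage markers 1 rose in each comparison (Adgre1, log2 fold change 0.72 and 0.92), while C1qa was at 1.21 and 0.26. Their median was 0.94 with 6 arrays and 0.35 without p80HT replicate 3. In each comparison 7 of the 11 were above all WT arrays and 0 below, where 8.86% and 19.7% of all genes were above. Without p80HT replicate 3, 3 of the 11 had an adjusted p under 0.05 upward in limma, against 2.56% of all genes. Of 9 plasma cell markers 1 rose in each comparison (Prdm1, 0.80 and 0.67), while Sdc1 was at 0.26 and 0.06. Of 8 endothelial markers 7 had a positive change in each comparison (median of the 8 0.62 and 0.25), with Cdh5 at 0.96 and 0.26. The remaining marker, Pecam1, fell in each (-0.92 and -0.74). In each comparison 4 of the 8 were above all WT arrays and 1 below. Over all genes 8.86% and 19.7% were above and 11.9% and 20.5% below. Of 7 NK cell markers 0 rose with 6 arrays and 1, Eomes, without p80HT replicate 3 (1.13 and 0.60), while the first of the list, Ncr1 (0.28 and 0.36) and Klrb1c (0.21 and 0.24), did not pass. Of 8 neutrophil markers 0 rose with 6 arrays and 2 without p80HT replicate 3, Elane (1.23 and 2.10) and Mpo (1.43 and 2.28), while S100a8 (-0.04 and 1.11) and S100a9 (-0.23 and 0.95) did not pass. Eomes, Elane, Mpo, Cr2 and Fcer2a were named after their values were seen. The part of these cells in the levels of Ccnd1, Ccnd2 and Ccne1 was not tested. The rise of Ccnd1 and Ccnd2 passed the threshold without the array that carries the gland and stroma transcripts, while the T cell and erythroid markers rose in that comparison too.

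**Figure D4:**
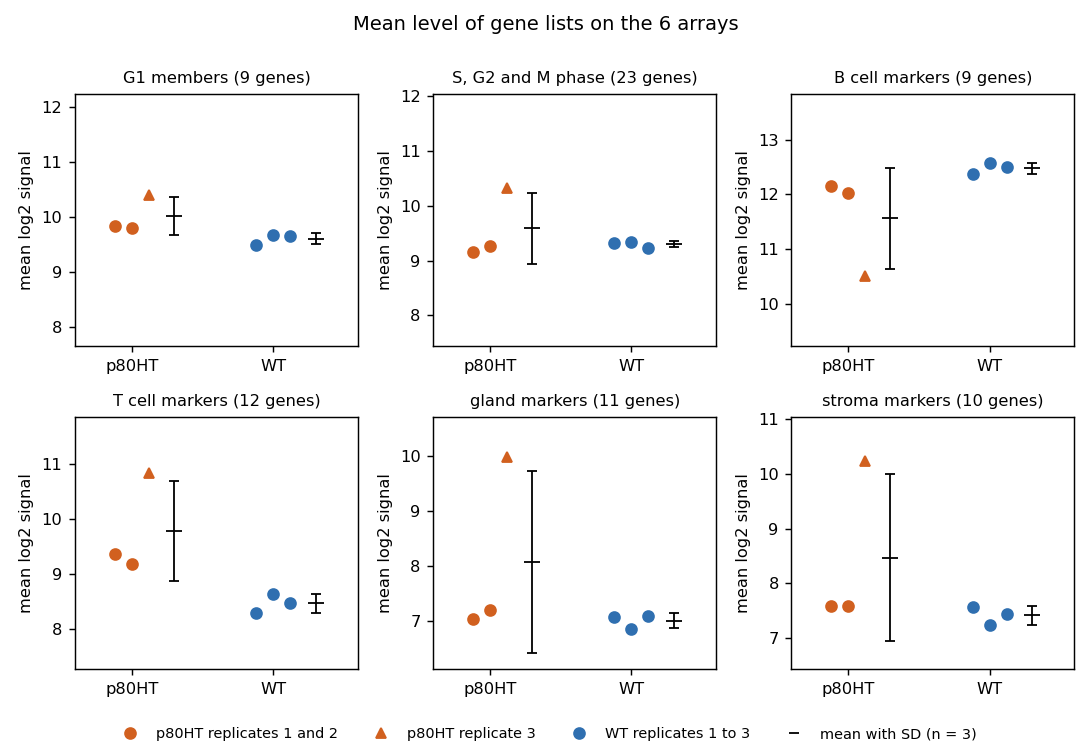
Mean log2 signal (vertical axis) of 6 gene lists on each array, p80HT left and WT right, with group mean and SD (n = 3). For T cell markers every p80HT point is above every WT point, and the S, G2 and M phase genes, gland and stroma markers stand out on p80HT replicate 3 alone (triangle).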

How the data were processed

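RNA of B220-selected splenic B cells from 3 p80HT and 3 WT mice was measured on 1 array each. The deposited values are log2 probeset signals, made by the authors with RMA in Partek; versions and settings are not given in the sources used here. RMA shrinks differences near background. Of 28853 probesets, 21789 carry 1 gene symbol, and 19938 genes were read at their probeset with the highest mean. Arrays have no sequencing depth, and precision is limited by the number of mice.

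Groups came from the sample titles and were tested 2-sided, without a block, by lmFit and eBayes of limma 3.58.1 (R 4.3.3), a step tested on simulated data. Without p80HT replicate 3, 2 arrays face 3. Alternatives were leave-one-out, a replicate block, ordinary analysis of variance, an intensity trend, array weights, quantile normalization, median centring, 2 filters, probeset means and other thresholds. List counts without p80HT replicate 3 were added after seeing the data. The members and lists were chosen with earlier results of these data known. Named are all members, up to 4 genes per pathway list with the smallest p past the threshold, Nfkb2 and the first 2 measured genes of each marker list; Skp2, Cdk2, Cdkn2a and Cdc25a are named as examples only. Upstream windows came from RefSeq (GRCm38.p6). Figures used matplotlib 3.10.9 in Python 3.11.15.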

Additional observations from a re-analysis of the deposited data

How the results depend on the processing

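With 6 arrays the count of members that rose was 3 and ran between 1 and 3 when single arrays were left out. When any 1 WT replicate was left out, Ccnd2 alone kept its call. The count was 1 by ordinary analysis of variance and 0 by an adjusted p under 0.05. Without p80HT replicate 3 the count was 2, and was 1 by ordinary analysis of variance and 1 at 2-fold. No alternative called a member lower. With the replicate number as a block the count with 6 arrays was 3, the same as without it. Without p80HT replicate 3 the block takes WT replicate 3 out of the comparison and leaves 2 arrays against 2. Every member then had the same SE of 0.188, so the count of 2 there cannot speak to pairing. The sample titles do not say whether same-numbered mice were paired. Deviations of same-numbered arrays from their group means correlated at 0.07, -0.24 and 0.07. These values cannot decide it, because p80HT replicate 3 weighs heavily on its group mean.

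Members that did not pass changed sign in some fits. With 6 arrays, leaving out single arrays gave -0.28 to 0.014 for Ccnd3, -0.21 to 0.48 for Ccne2 and -0.35 to 0.18 for Cdkn2c, and array weights gave -0.36 for Ccne2. Without p80HT replicate 3, leaving out a further array gave -0.25 to 0.043 for Ccnd3 and -0.23 to 0.009 for Nfkb2. There Ccnd3 was at 0.041 with the replicate block and 0.053 after quantile normalization, Cdkn1b at 0.043 after quantile normalization and Cdk6 at -0.027 after median centring. The difference between Ccnd1 and Ccnd2 ran from -0.22 to 0.15, and that between Cdk6 and Cdk4 from -0.042 to 0.21. The cause was not tested. Ccne2 has no value under the filter at the 50th percentile. Over all genes, 243 rose with 6 arrays, 119 by ordinary analysis of variance and 478 with array weights. With 3 mice per genotype and 1 array apart from the rest, small changes are poorly resolved, and the smallest change that could be resolved was not estimated.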

Other observations

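Cdkn1b has a further probeset annotated to it alone. It read 8.26, 8.54 and 8.25 on p80HT replicates 1 to 3, against 8.16, 8.58 and 8.55 on WT replicates 1 to 3. Its log2 fold change was -0.08 with 6 arrays and -0.03 without p80HT replicate 3, where the probeset used above gave -0.29 and -0.09. On the probeset used above p80HT replicate 3 was lower than every other array, and on the further one WT replicate 1 was the lowest.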
